A study of Mus musculus with 2 samples.

Results

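The transcripts of Sox4, Jag2, Mfap4, Nhlh2 and Lhx9 were followed in the cerebral cortex of mouse embryos at embryonic day E14.5, with and without Trrap, a large protein around which several histone acetyltransferase complexes are built. The 5 genes were chosen by name from a deposited table of 2381 gene loci that the authors had called different between genotypes, and each has 1 row there. The table gives a level for each of 2 libraries, both from the B6/129 background. The Trrap-deleted library carried floxed Trrap on both chromosomes and Nestin-Cre (TrrapF/F NestinCre+), a recombinase driven in neural progenitors and thus inherited by their progeny. The control was entered as wild type, but its description gives TrrapF/+ NestinCre+, so it also carried the recombinase and lost 1 copy of Trrap in the same cells. Blood vessel, meningeal and microglial cells do not descend from these progenitors. Levels are FPKM, which divide fragment numbers by transcript length and sequencing total, so they can be compared between genes.

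With 1 library per genotype there is no standard deviation and no test between genotypes could be made here. The p-values and q-values (p-values adjusted for multiple testing) given below come from the authors' deposited table. They do not show how far embryos of 1 genotype differ. The number of embryos behind each library is not given. Trrap is not listed, and the genotype labels could not be checked against its transcript.

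In the embryonic cortex, apical progenitors divide at the ventricle and give rise to neurons directly or through basal progenitors. Notch signalling holds cells in the progenitor state: a ligand such as Jag2 on 1 cell activates a Notch receptor on its neighbour, and Rbpj carries the signal to repressors of the Hes and Hey families. Proneural basic helix-loop-helix (bHLH) factors such as Neurog2 push cells out of that state. Sox4 and its relative Sox11 are DNA-binding factors that act in basal progenitors and young neurons. Nhlh2 is a bHLH factor of newly formed neurons. Lhx9 is a LIM homeodomain transcription factor, best known in the brain from the diencephalon, and Mfap4 is a secreted glycoprotein of elastic fibres.

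The label neurogenic commitment covers Sox4, Jag2, Mfap4 and Nhlh2 but not Lhx9, and it did not correspond to a common direction. Sox4, Jag2 and Mfap4 were higher in the Trrap-deleted cortex, and Nhlh2 and Lhx9 were lower. Of all rows 58.0% were higher and 42.0% lower. The genes were chosen with this contrast in view, so their values are a description and 3 against 2 supports nothing.

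Sox4 was the most abundant of them in both libraries. Its level was 127 FPKM in the control and 225 FPKM in the Trrap-deleted library. The levels differ by 98.8 FPKM, or 1.78-fold (log2 fold change 0.83), and the authors' deposited table gives q = 1.01e-07. Sox4 stood 239th by level in the control against 87th in the Trrap-deleted library among the 2381 rows. Its level makes the direction uncommon within the table: when the rows are cut into 10 equal groups by mean FPKM, 41 of the 238 in the group of Sox4 (17.2%) were higher in the Trrap-deleted library. Of those 41 rows, 6 had a larger log2 fold change than Sox4.

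The Sox4 value has a limit of its own. A second row, the predicted gene Gm17419, has the identical locus (mm9, chromosome 13, 29034917 to 29047134). Gm17419 was at 138 FPKM in the control and 220 FPKM in the Trrap-deleted library (log2 fold change 0.68, q = 2.98e-05 in the authors' deposited table), close to Sox4 in both. That locus is 12218 bases long, while the Sox4 gene, a single exon, spans 4795 bases in the GENCODE M21 annotation. The same annotation places a long noncoding RNA, Gm26735, on the opposite strand across 2753 bases of Sox4. The kit named in the labels does not mark the strand, so reads from the overlapping transcripts may have been shared out between the 2 rows, and the size of the Sox4 difference is uncertain.

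Mfap4 was second in level. It was at 69.0 FPKM in the control and 124 FPKM in the Trrap-deleted library, 1.80-fold higher (log2 fold change 0.85, q = 1.5e-05 in the authors' deposited table). It too was higher where most rows were lower: in its group by mean FPKM, 38.2% of 238 rows were higher. The ratio of Sox4 to Mfap4 was 1.84 in the control against 1.82 in the Trrap-deleted library, so these genes kept nearly the same proportion. The Mfap4 locus in the table (mm9, chromosome 11, 61298933 to 61307908) is 8976 bases long, against 3470 for the gene in GENCODE M21. The annotated span of Mfap4 together with Mapk7, a kinase gene on the opposite strand whose end overlaps that of Mfap4 by 89 bases, is also 8976 bases. Mapk7 is not listed, and reads from the shared end cannot be assigned by strand.

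Jag2 was the least abundant of the 5 in the control. It was at 2.73 FPKM in the control and 5.49 FPKM in the Trrap-deleted library, 2.01-fold higher (log2 fold change 1.01, q = 0.000695 in the authors' deposited table). In absolute terms this is a gain of 2.75 FPKM, far less than the gain in Sox4 or Mfap4. A higher value was also the usual direction at this level, with 73.1% of the 238 rows in its group by mean FPKM higher, and 88 of those 174 rows had a larger log2 fold change. The locus (mm9, chromosome 12, 114146019 to 114167706) matches the annotated gene in length to within 270 bases. The only annotated gene overlapping it is a microRNA gene on the same strand, inside it.

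Nhlh2 was at 12.3 FPKM in the control and 6.41 FPKM in the Trrap-deleted library, 1.92-fold lower (log2 fold change -0.94, q = 1.95e-05 in the authors' deposited table). Lhx9 had the largest fold difference of the 5. It was at 13.7 FPKM in the control and 4.72 FPKM in the Trrap-deleted library, 2.91-fold lower (log2 fold change -1.54, q = 2.36e-05 in the same table). Both genes sat in the same group by mean FPKM, where 34.5% of 238 rows were lower. Of those 82 lower rows, 44 had a larger decrease than Nhlh2 and 10 had a larger decrease than Lhx9. Nhlh2 (mm9, chromosome 3, 101814068 to 101819415) and Lhx9 (mm9, chromosome 1, 140721754 to 140745153) overlap no other annotated gene, and their loci match the annotated lengths to within 69 and 8 bases, so the limit given for Sox4 and Mfap4 does not apply to them.

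**Figure D1:**
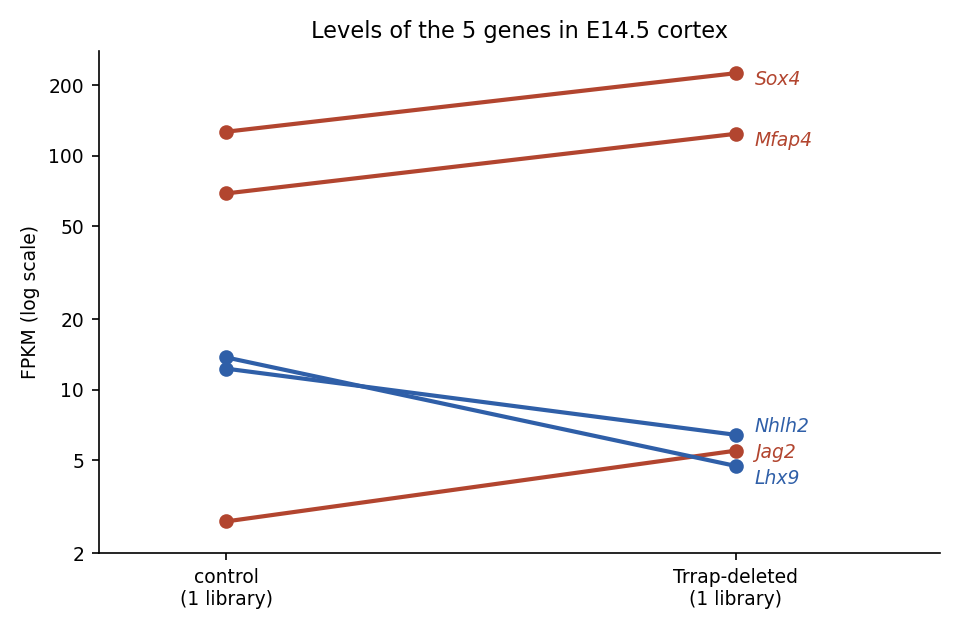
FPKM (log axis) of the 5 genes in the control and the Trrap-deleted library, 1 point per library, joined by a line; red lines are higher and blue lines lower in the Trrap-deleted library. Sox4 and Mfap4 run in parallel at the top, while the Lhx9 line falls below that of Jag2 and the Nhlh2 line ends just above it.

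The order of the 5 genes by level therefore changed at its lower end. In the control it was Sox4, Mfap4, Lhx9, Nhlh2 and Jag2, with Lhx9 and Nhlh2 close together. In the Trrap-deleted library it was Sox4, Mfap4, Nhlh2, Jag2 and Lhx9, and the last 3 lay between 4.72 and 6.41 FPKM. Whether neighbours this close differ cannot be judged from single libraries. The ratio of Jag2 to Nhlh2, which does not depend on how the libraries were scaled, went from 0.222 to 0.856, a 3.85-fold change. The ratio of Sox4 to Nhlh2 went from 10.3 to 35.2, and that of Sox4 to Lhx9 from 9.22 to 47.8.

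**Figure D2:**
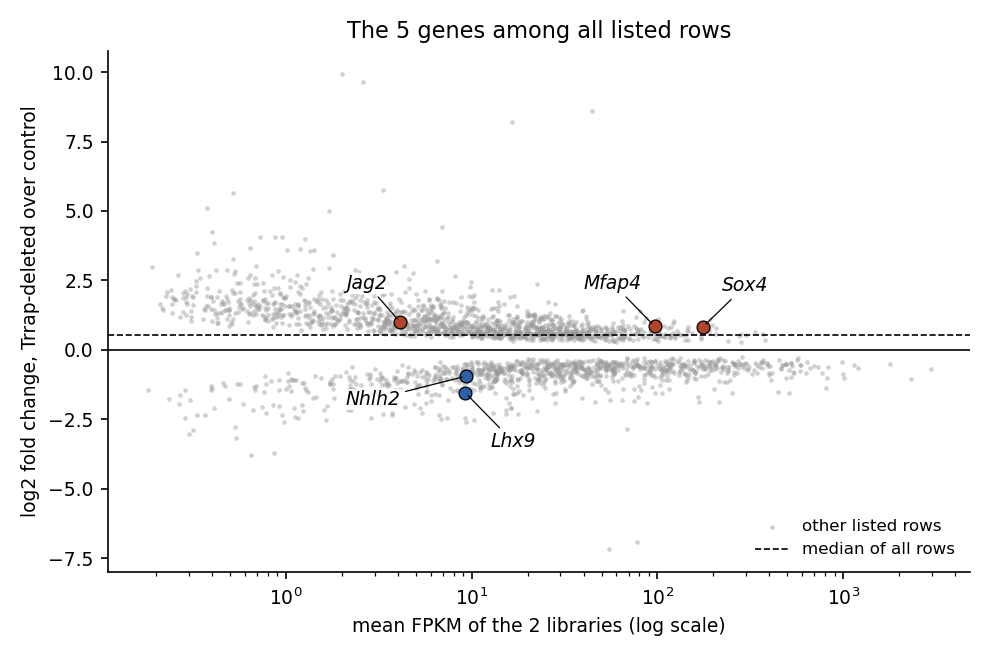
Log2 fold change (Trrap-deleted over control) against mean FPKM (log axis) for every row above 0 in both libraries; large points are the 5 genes and the dashed line is the median of those rows, 0.54. Sox4 and Mfap4 lie above the line at levels where most rows are below 0, and Jag2 lies among many higher rows.

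The same values can be read against the midpoint of the rows. All rows had passed the authors' test, so their midpoint need not measure a difference in scaling between the libraries. The median log2 fold change of the 2376 rows above 0 in both libraries was 0.54. Relative to it, Sox4 was 0.29 higher on the log2 scale, Mfap4 0.30 higher and Jag2 0.46 higher. Nhlh2 stood at -1.48 and Lhx9 at -2.09 on that scale. Scaling the libraries to the same summed FPKM, again over rows that passed the test, moved all values the other way. They became 1.18 for Sox4, 1.19 for Mfap4, 1.35 for Jag2, -0.59 for Nhlh2 and -1.20 for Lhx9. The direction of each of the 5 genes was the same under these scalings, but the sizes of the increases and of the decreases were not.

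**Figure D3:**
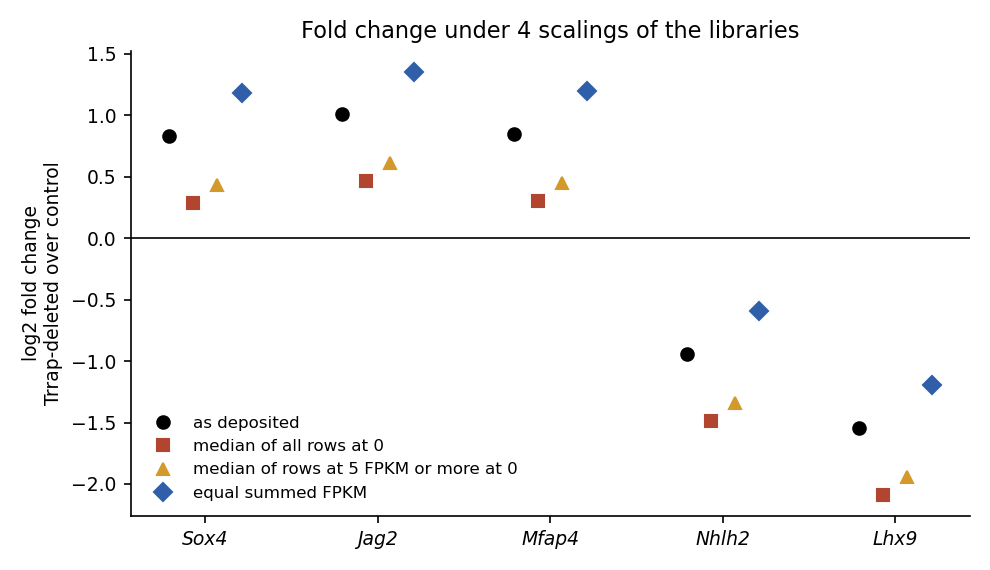
Log2 fold change of the 5 genes under 4 scalings of the libraries: as deposited, with the median of all rows at 0, with the median of rows of at least 5 FPKM at 0, and with equal summed FPKM; 1 point per gene and scaling. Sox4 spans 0.29 to 1.18 and Lhx9 -2.09 to -1.20, and no gene crosses 0.

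Each gene was next set among its relatives. These lists were written with earlier results of these data known, and a gene without a row is called not listed, since the table holds only loci that passed the authors' test. Of 19 Sox genes, Sox4 and Sox11 were the listed ones, both higher, as were 58.0% of all rows. Sox11 went from 144 to 198 FPKM (log2 fold change 0.46), which falls to -0.09 against the median of all rows. The ratio of Sox4 to Sox11 was 0.877 in the control against 1.14 in the Trrap-deleted library, and this order is as uncertain as the Sox4 level, which shares its locus with Gm17419. Sox2, Sox9 and the other 15 Sox genes were not listed.

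Of 40 Notch pathway genes 6 were listed, 3 higher and 3 lower. Over all rows 58.0% were higher and 42.0% lower, so this split of 6 genes is no result about the pathway. The median log2 fold change of the 6 genes was 0.12, or -0.42 against the median of all rows. Beside Jag2, the higher genes were Dner, a transmembrane protein related to Notch ligands (13.0 to 21.9 FPKM), and Neurl1a, a ubiquitin ligase that acts on ligands (1.34 to 5.27 FPKM). The lower genes were Rbpj, Hey1 and Hey2. Rbpj, the DNA-binding effector of the pathway, went from 37.7 to 26.3 FPKM. The effector repressors Hey1 and Hey2 went from 25.3 to 17.5 FPKM and from 4.48 to 1.60 FPKM. The ratio of Jag2 to each of these lower genes was higher in the Trrap-deleted library, 2.88-fold for Rbpj, 2.91-fold for Hey1 and 5.60-fold for Hey2. That follows from their opposite directions and adds nothing to them. The ratio of Jag2 to Neurl1a was lower in that library, since Neurl1a was 3.93-fold higher there and Jag2 2.01-fold. The receptors Notch1 to Notch4, the ligands Dll1, Dll3, Dll4 and Jag1, and Hes1 and Hes5 were not listed.

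Of 25 bHLH factors and their partners 6 were listed, 2 higher and 4 lower (median log2 fold change -0.42). Over all rows 58.0% were higher and 42.0% lower, and 6 genes are too few for a result about the family. Nhlh2 was lower together with Neurod6, a factor of postmitotic projection neurons (312 to 260 FPKM), Tcf3, a general bHLH partner (64.9 to 43.6 FPKM), and Olig2, a factor of ventral progenitors and oligodendrocytes (0.423 to 0.111 FPKM). The proneural factor Neurog2 (89.6 to 112 FPKM) was higher, as was Id2, which blocks bHLH pairing (107 to 157 FPKM). Against the median of all rows Neurog2 was lower and Id2 level with it, and with equal summed FPKM Neurod6 was no longer lower. The ratio of Neurog2 to Nhlh2 was 7.28 in the control against 17.5 in the Trrap-deleted library. Nhlh1, the close relative of Nhlh2, was not listed.

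Of 21 LIM homeodomain factors and cofactors 4 were listed, 1 higher and 3 lower, beside 58.0% and 42.0% of all rows. Lhx9 was lower together with Lhx6, a factor of cortical interneurons (7.06 to 1.71 FPKM), and Ldb1, the cofactor that LIM factors share (142 to 99.0 FPKM). Ssbp4, which binds Ldb1, was higher (14.1 to 27.5 FPKM). Lhx2, the closest relative of Lhx9, was not listed.

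Of 25 genes of microfibrils and elastic fibres 6 were listed, 4 higher and 2 lower. Over all rows 58.0% were higher and 42.0% lower, so this split of 6 genes is no result about the family. Mfap4 was the most abundant of them and was higher together with the elastin gene Eln (5.48 to 13.1 FPKM), Fbln2 (1.64 to 4.69 FPKM) and Ltbp3, a binding protein of latent TGF-beta (15.8 to 23.5 FPKM). The fibrillin gene Fbn2 (3.65 to 1.99 FPKM) and Ltbp1 (18.5 to 7.37 FPKM) were lower. The ratio of Mfap4 to Eln was 12.6 in the control against 9.51 in the Trrap-deleted library.

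The list of basal progenitor and neurogenic commitment genes holds 4 of the 5 genes and was drawn up knowing their values. Of its 30 symbols 11 were listed, 6 higher and 5 lower, beside 58.0% and 42.0% of all rows. Against the median of all rows 4 were higher and 7 lower, where by construction 50.1% and 49.9% of all rows are. Among the 7 listed symbols left when Sox4, Jag2, Mfap4 and Nhlh2 are set aside, 3 were higher and 4 lower (median log2 fold change -0.45). Beside Sox11 and Neurog2, Kif26b, a kinesin family gene, was higher (7.13 to 10.6 FPKM). The neuronal RNA-binding protein genes Elavl2 (131 to 82.2 FPKM) and Elavl3 (76.3 to 50.7 FPKM), the corepressor gene Rcor2 (142 to 81.2 FPKM) and Mtss1 (39.6 to 29.0 FPKM) were lower. Eomes, Insm1, Btg2 and Dcx were not listed.

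**Figure D4:**
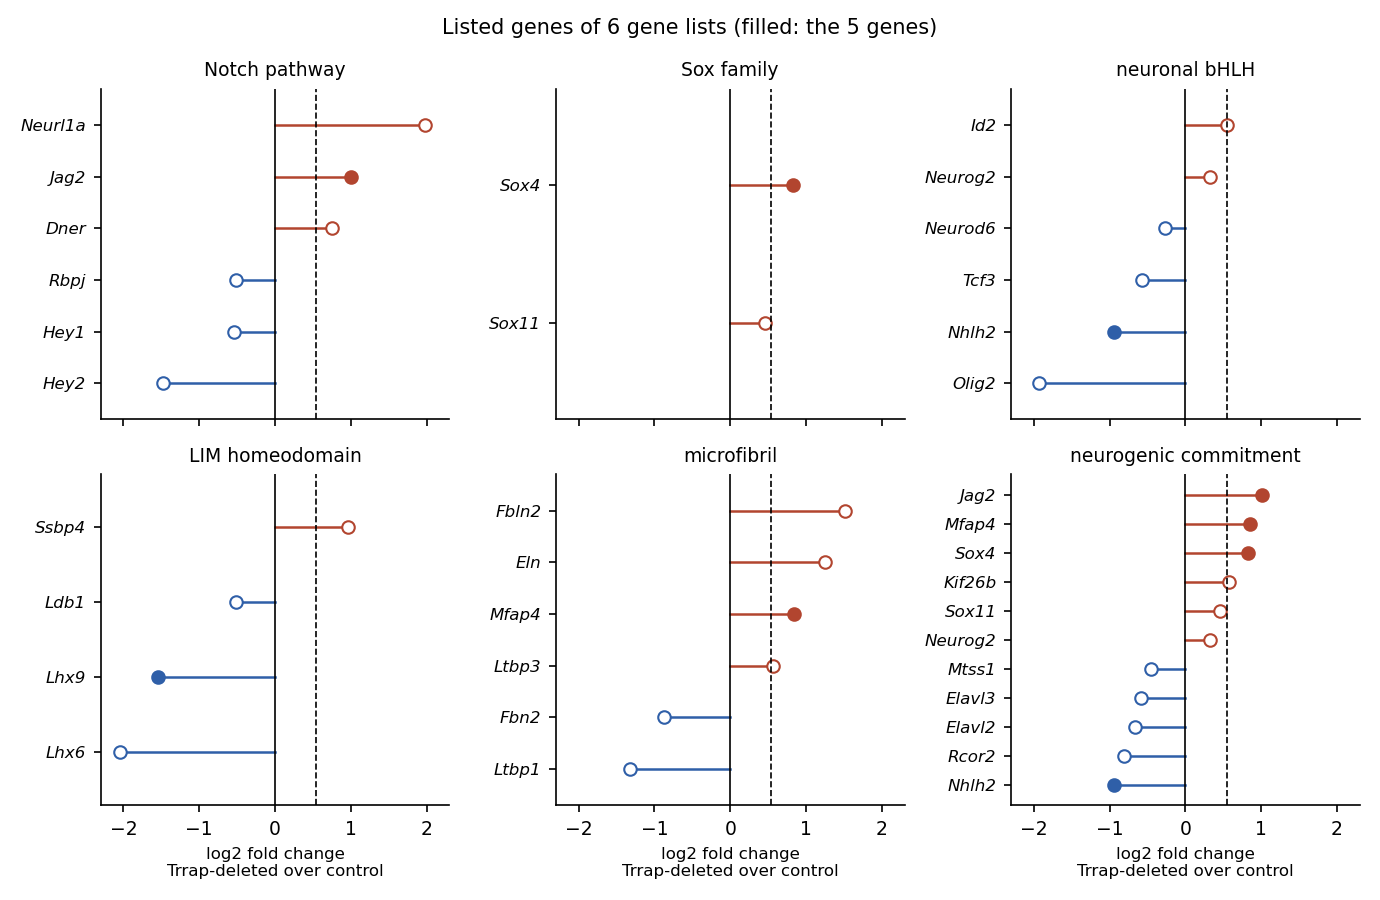
Log2 fold change (Trrap-deleted over control) of the listed genes reported in 6 gene lists, 1 point per gene; filled points are the 5 genes and the dashed line is the median of all rows, 0.54. Each list except the Sox family holds genes on both sides of 0, and Neurog2 and Sox11 lie between 0 and the dashed line.

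Markers of other cells differed between the same libraries. For comparison, 58.0% of all rows were higher, and this share varied with level. In the group of Jag2 by mean FPKM (2.91 to 5.67 FPKM) 73.1% of rows were higher, so an increase is common at low levels. Most of the listed meningeal and microglial markers lie below that group, at levels whose own share is not given here. In bulk tissue, fewer cells of a type and less RNA per cell cannot be told apart. Of 18 meningeal and mesenchymal markers, a compartment where elastic fibre genes such as Mfap4 are also expressed, 9 were listed and 8 were higher. Their median log2 fold change was 1.83. Fn1, the most abundant, was the only lower one (19.9 to 12.2 FPKM), followed in level by Cxcl12 (9.21 to 17.4 FPKM) and Dcn (1.79 to 6.34 FPKM). The summed level was 32.3 and 47.0 FPKM with Fn1, and 12.5 and 34.8 FPKM without it. Mfap4 alone was at 69.0 and 124 FPKM, and any part of this compartment in its value was not tested. Named after their values were seen, the collagen genes Col3a1 (0.558 to 4.13 FPKM), Col1a2 (0.210 to 2.50 FPKM) and Col1a1 (0.0825 to 1.37 FPKM) and the proteoglycan gene Lum (0.0203 to 1.02 FPKM) were low in level, with log2 fold changes up to 5.66. All 9 listed microglial markers of 16 were higher, with a summed level of 11.0 and 29.0 FPKM. Pdgfrb and Cspg4, the listed markers among 20 of endothelium and pericytes, were also higher, with a summed level of 2.07 and 4.24 FPKM. Of the 22 ventral telencephalic markers reported here 5 were listed and were lower, with a summed level of 30.5 and 13.1 FPKM. Choroid plexus and erythroid markers had 1 listed gene each, both higher, Ttr (0.104 to 3.31 FPKM) and Hbb-y (96.8 to 157 FPKM). The Ttr locus in the table is 116251 bases long against 9042 in GENCODE M21, which makes that value uncertain.

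Lhx9 was the only listed symbol of 29 for the diencephalon and other brain regions, and Nhlh2 the only listed one of 14 for Cajal-Retzius cells, the early neurons under the meninges. Of the cortex itself, 5 of 6 listed projection neuron markers (of 18; summed level 611 and 451 FPKM) and 5 of 6 listed apical progenitor markers (of 20; summed level 727 and 474 FPKM) were lower. For comparison, 42.0% of all rows were lower. In the group of Sox4 by mean FPKM, which starts at 113 FPKM, 17.2% of rows were higher, so a decrease is common at high levels. Only Vim and Neurod6 of these markers reach that group, so its share is no comparison for the rest. Stmn2 lies in the group of Mfap4, where 38.2% of rows were higher, and Hey2 in that of Jag2, where 73.1% were. Most of the progenitor sum was Vim (632 to 387 FPKM), and without it the sum was 94.7 and 86.9 FPKM, with Slc1a3 higher (30.7 to 55.1 FPKM). Among the projection neuron markers, Neurod6 was at 312 and 260 FPKM, Stmn2 at 158 and 53.9 FPKM and Fezf2 at 55.9 and 42.5 FPKM. Slc17a7 was the higher one (20.2 to 46.5 FPKM). No listed marker was at 0 in either library. Of 35 subunits of complexes containing Trrap, Atxn7 (9.03 to 12.4 FPKM) and Morf4l2 (204 to 142 FPKM) were listed. Sex-linked transcripts differed as well, with Xist at 313 and 142 FPKM and the Y-linked gene Eif2s3y at 0.111 and 32.8 FPKM in the control and the Trrap-deleted library. The part of any of these differences in the values of the 5 genes was not tested, and genotype and sex of the embryos cannot be told apart.

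The chromosomal neighbours of the 5 genes did not share their directions throughout. Apart from Gm17419 at the locus of Sox4, the closest listed neighbour was Nudt14, 4542 bases beyond Jag2, which was higher (8.76 to 26.3 FPKM); Cdca4, on the other side of Jag2 at 78356 bases, was lower (40.9 to 23.6 FPKM). Rnf112, 31282 bases from Mfap4, was higher (6.44 to 21.3 FPKM), and Ulk2 on its other side was lower (32.5 to 22.3 FPKM). Around Nhlh2 and Lhx9, and around the locus that Sox4 shares with Gm17419, the nearest listed rows lay at least 205441 bases away.

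Over these 2 libraries some other genes had almost the same pair of values. By distance between log2 FPKM values in both libraries, the nearest single-gene rows were Gm17419, Dlg4 and Ptn for Sox4 (distance 0.125 to 0.217), Snap47, Sfrp1 and Gabarapl2 for Mfap4 (0.124 to 0.157), and Nfatc2, Pdxk and Akap17b for Jag2 (0.00607 to 0.0447). For Nhlh2 they were Dusp1, Dock11 and Amotl1 (0.0457 to 0.0996), and for Lhx9 Tmem98, Rab33a and Bcan (0.0428 to 0.0749). With 2 values per gene, such likeness says only that level and fold change coincide.

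Promoter windows of the genes differ in composition. RefSeq's table (GRCm38.p6) gave 1 start each for 4 of the 5 genes, Sox4, Jag2, Nhlh2 and Lhx9. GENCODE M21 holds 10 transcripts of Jag2, 7 of Lhx9 and 3 of Nhlh2, and which start is used in this tissue was not tested. The 250 bases before the start are printed for Sox4, the most abundant gene, and for Jag2 and Nhlh2, which have the highest and the lowest GC content of the 4 and differed in opposite directions. They run 5′ to 3′ on the gene's strand, at chr13:28953700-28953949 (minus strand), chr12:112929496-112929745 (minus strand) and chr3:102009895-102010144 (plus strand). Capitals mark the E-box CANNTG, the core sequence that bHLH factors recognise.
Sox4: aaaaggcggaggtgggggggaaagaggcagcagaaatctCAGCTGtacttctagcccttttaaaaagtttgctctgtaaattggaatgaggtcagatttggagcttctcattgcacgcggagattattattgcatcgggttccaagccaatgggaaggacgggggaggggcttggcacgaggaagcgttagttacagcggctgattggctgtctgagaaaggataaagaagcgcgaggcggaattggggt
Jag2: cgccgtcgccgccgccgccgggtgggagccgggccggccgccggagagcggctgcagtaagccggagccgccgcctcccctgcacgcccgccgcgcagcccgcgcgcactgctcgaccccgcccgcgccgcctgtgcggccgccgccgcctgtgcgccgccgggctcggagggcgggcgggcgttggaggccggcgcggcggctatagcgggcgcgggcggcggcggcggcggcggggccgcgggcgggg
Nhlh2: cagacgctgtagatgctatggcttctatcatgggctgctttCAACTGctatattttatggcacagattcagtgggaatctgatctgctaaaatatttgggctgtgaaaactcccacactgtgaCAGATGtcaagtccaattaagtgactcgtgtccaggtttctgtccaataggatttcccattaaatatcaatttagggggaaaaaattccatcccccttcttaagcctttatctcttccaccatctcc

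The Jag2 promoter was 87.2% G and C with 54 CpG dinucleotides, and it held no E-box. The Sox4 promoter was 50.8% G and C with 11 CpG and 1 E-box, and that of Nhlh2 42.0% with 2 CpG and 2 E-boxes. The Lhx9 promoter, not printed, was 53.6% G and C with 4 CpG and 1 E-box. Over 32841 promoter windows of this length the median was 52.4% G and C and 6 CpG, and 66.2% of windows held an E-box. CCAAT, the box bound by NF-Y, was found on either strand 4 times in Sox4, 2 times in Nhlh2, 1 time in Lhx9 and not in Jag2, against 33.9% of windows with at least 1 match. TGGGAA, the core recognised by Rbpj, was found 1 time in Sox4 and 2 times in Nhlh2 (21.6% of windows). AACAAT (9.43% of windows), TAATTA (4.84%) and TATAAA (12.4%), searched on both strands, matched in none of the 4 windows. These matches describe letters in the windows and are not binding sites.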

How the data were processed

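RNA sequencing was compared between 1 control and 1 Trrap-deleted library of E14.5 mouse cortex. Per the labels' protocols, 2.5 µg of total RNA entered each TruSeq library. Per the submitters' processing notes, TopHat2 and genome build mm9 were used; no source used here names the software that counted and tested the loci. The authors deposited FPKM values for each library, read as such from the column layout, with a log2 fold change, and a p-value and q-value from their own test, for 2381 loci, all marked significant. Read totals are not given, so depth is unknown and no counting interval could be set.

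Fold changes were recomputed as log2 of Trrap-deleted over control FPKM with no pseudocount, in Python 3.11.15 with pandas 2.3.3, and differed from the deposited ones by at most 1.18e-05. The functions were tested on simulated data. Rows naming several genes (59) did not enter the 18 gene lists (327 symbols, 70 listed; 1 further gene is not reported here and is in no count of these lists), and a symbol with several rows was represented by the one of highest mean FPKM. The 5 genes and the lists were chosen with earlier results of these data known. Named are the 5 genes, every listed gene of the 6 lists set beside them, rows at or nearest to their loci, and the 3 rows nearest in value. At most 3 genes of each other list are named, except for the meningeal and projection neuron lists. There, further genes were named after their values were seen. GENCODE M21 and RefSeq, on another build, gave gene lengths, overlaps and promoter sequences, matched by symbol. Alternatives were other pseudocounts, scalings, FPKM minimums and a stricter q-value.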

Additional observations from a re-analysis of the deposited data

How the results depend on the processing

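All 30 alternative values of the 5 genes (6 settings each) kept their direction and lay within 1.5-fold of the deposited fold change. Most of this was fixed in advance and is no measure of robustness. A pseudocount cannot change a direction, and the deposited fold change is the same value. Each other scaling moved all genes by 1 constant on the log2 scale (0.54, 0.40 or -0.35), less than 1.5-fold (0.585). Across settings Sox4 ranged from 0.29 to 1.18 on the log2 scale, Mfap4 from 0.30 to 1.19, Jag2 from 0.46 to 1.35, Nhlh2 from -1.48 to -0.59 and Lhx9 from -2.09 to -1.20. At a q-value under 0.01, 906 rows were higher and 647 lower, and the lower genes of the neurogenic commitment list went from 5 to 3, since fewer rows remain. With the median of all rows at 0, the median log2 fold change of that list turned from 0.32 to -0.22 and that of the Notch list from 0.12 to -0.42. Equal summed FPKM turned that of the Trrap complexes from -0.03 to 0.32. Of 303 values of the other lists 274 stayed within 1.5-fold of their value or count, 27 moved by more and 2 turned sign. No paired analysis was possible because each genotype had 1 library. With 1 library each and unknown depth, neither the spread between embryos nor counting error could be set beside any value.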
